A study of Mus musculus with 24 samples.

Results

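The comparison asked how the transcriptome of wild-type (WT) CD8+ T cells taken 7 days after an allogeneic transplant (post-tx) differed from that of WT CD8+ T cells taken straight from the spleen of untransplanted mice (pre-tx). It rested on 6 of the 24 RNA sequencing libraries of the series, chosen by their labels alone: 3 labelled WT CD8 pre-transplant and 3 labelled WT CD8 post-transplant day 7. All donors were C57BL/6 mice of wild-type genotype, with no transgene, and all cells came from spleen. By the study's methods, pre-tx cells were sorted from fresh splenocytes of 3 mice. For post-tx samples, CD4+ and CD8+ T cells of WT donors were mixed in equal numbers and injected with T cell-depleted WT bone marrow into lethally irradiated BALB/c mice. On day 7, donor CD8+ T cells were sorted from the spleens of 3 recipients. The methods give an age of 8 to 12 weeks for all mice. The donor marrow came from the same strain and carries the same H-2Kb molecule as the injected T cells, so this molecule does not separate cells that arose from the marrow from the injected cells. The other 3 pre-tx and 3 post-tx CD8 libraries of the series came from *Cat-Tg* mice, which carry a human beta-catenin transgene that lacks the N-terminus and is expressed in T cells. They entered the same fit, served to test where the WT change differed from theirs, and give the levels of a second set of CD8 libraries beside the WT values.

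CD8+ T cells carry the CD8 coreceptor beside their T cell receptor and kill cells that show foreign peptide or foreign MHC class I. In an MHC-mismatched transplant, donor T cells meet host MHC molecules on most host cells. Naive cells that are activated in this way leave quiescence, divide and become effectors, which release granzymes and perforin, display Fas ligand, secrete cytokines and express inhibitory receptors. These steps gave the gene lists described here, and lists of genes typical of other spleen cells were kept apart from them.

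The pre-tx libraries did not look like pure CD8+ T cells. Cd8a and Cd4 encode the coreceptors of the 2 main T cell lineages, and of their summed TPM (a level per transcript length) Cd8a made up 72.2%, 57% and 67.1% in the 3 pre-tx libraries, against 97%, 99.4% and 99.8% in the post-tx libraries and between 97.0% and 99.9% in the 3 *Cat-Tg* pre-tx libraries. Cd4 stood at 75.1, 79.1 and 94.9 CPM pre-tx and 3.82, 4.14 and 1.02 CPM post-tx, where CPM is the count scaled to library size, here by TMM (trimmed mean of M values). Cd79a, a chain of the B cell receptor complex, stood at 1188, 924 and 1227 CPM pre-tx. The summed level of 19 genes of the T cell receptor complex and its proximal signaling was between 2647 and 2864 CPM in the pre-tx libraries and between 17316 and 20099 CPM in the post-tx libraries, and between 11633 and 15889.8 CPM in the *Cat-Tg* pre-tx libraries. The libraries labelled WT CD8 pre-tx thus held transcripts of CD4+ T cells and B cells, which a pure CD8+ sort would lack. In bulk RNA, fewer cells of a type and less RNA per cell cannot be told apart. Changes are therefore given under 2 scalings: TMM, which centres the bulk of all transcripts, and a scaling that sets the summed T cell receptor list equal in all libraries, here called T cell scaling. The T cell receptor list counts the RNA of CD4+ as well as CD8+ T cells.

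**Figure D1:**
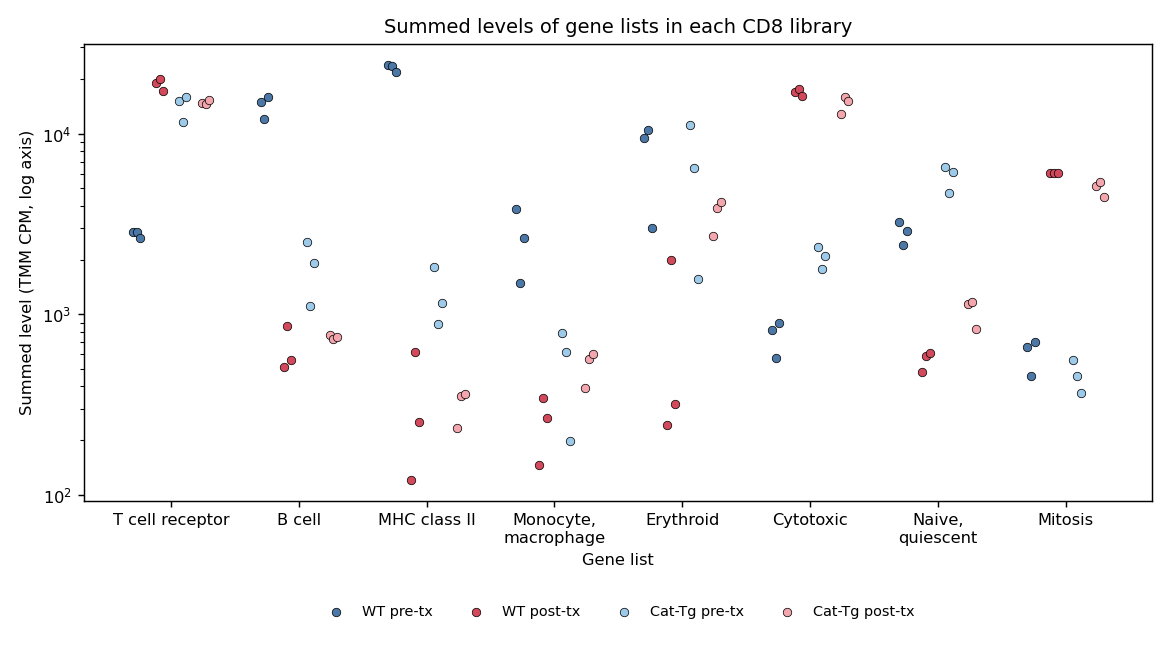
Summed TMM CPM (log axis) of 8 marker lists in each library. Each point is 1 library: WT pre-tx, WT post-tx, *Cat-Tg* pre-tx and *Cat-Tg* post-tx, 3 each. B cell and MHC class II sums of the WT pre-tx libraries lie above those of all other libraries, and their T cell receptor sums lie below those of all others.

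The libraries held between 18184813 and 32657005 estimated counts, at which 3 counts correspond to between 0.0919 and 0.165 CPM. The 3 post-tx libraries differed from each other more than the pre-tx libraries did, along the GC content of the genes. Over 8536 well-expressed genes, the 20% with the lowest GC content deviated from the post-tx mean by a median of 0.75 (log2) in post-tx library 1, -0.84 in library 2 and 0.09 in library 3. For the 20% with the highest GC content, the medians were -1.22, 0.99 and 0.22. The CD3 chains of the same receptor differed between libraries in opposite order: Cd3g stood at 1303, 247 and 616 CPM in post-tx libraries 1, 2 and 3, and Cd3e at 234, 1326 and 626 CPM. Many genes below were high in library 1 and low in library 2, or the reverse, and the part of this trend in the spread of a single gene was not tested. A fit with the GC and length trend of each library removed, which was added after seeing the data, is given beside part of the counts and calls that it changed.

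Of 15967 genes tested, 1302 (8.15%) were higher post-tx and 1297 (8.12%) were lower. These differentially expressed genes (DEGs) had adjusted p ≤ 0.05 and changed by 2 or more on the log2 scale. At the adjusted p alone, which is what "rose" and "fell" mean below, 2102 genes (13.2%) rose and 1667 (10.4%) fell. A fit of the 6 WT libraries alone gave 1139 and 1256, and 1367 genes rose without post-tx library 3. The groups did not overlap for 5336 genes (33.4%). The direction of calls depended on the scaling. Under T cell scaling, 177 genes (1.11%) rose and 11749 (73.6%) fell, and the median log2 fold change of all tested genes went from -0.23 to -2.97. Counts of list members under T cell scaling below are to be read against these shares. With the GC and length trend removed, 627 DEGs were higher and 1224 lower.

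All 22 tested genes of the B cell list fell, with a median log2 fold change of -7.23, and their summed level went from between 11986 and 16049 CPM to between 508 and 861 CPM. Cd79a fell by 7.49 on the log2 scale (SE 0.74, adjusted p = 1.02e-05), to 2.59, 13.5 and 2.59 CPM. Cr2, the complement receptor of mature B cells, went from 469, 115 and 333 CPM to 0.841, 0.947 and 0.431 CPM. Ighm, the heavy chain of IgM, stood at 5728, 4645 and 7045 CPM pre-tx and 434, 703 and 478 CPM post-tx. For these 3 genes every pre-tx library exceeded every post-tx library.

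MHC class II genes, which present peptide to CD4+ T cells and are a property of B cells, dendritic cells and macrophages, fell together: 11 of 11, with a median of -6.24. Cd74, the invariant chain, stood at 12055, 13325 and 11157 CPM pre-tx and 32, 178 and 69.3 CPM post-tx. By TPM, Cd74 ranked 2 among protein-coding genes in the mean of the pre-tx libraries and 1768 in that of the post-tx libraries. H2-Ab1 went from 5471, 5367 and 4818 CPM to 27.6, 135 and 44.7 CPM, and Ciita, the transactivator of the class II genes, from 312, 289 and 191 CPM to 1.42, 5.92 and 3.92 CPM. The direction was the same in every library. Of the plasma cell list, 3 of 4 tested members fell. Jchain, which joins IgM and IgA, was spread over 837, 133 and 496 CPM pre-tx and stood at 5.76, 3.37 and 2.12 CPM post-tx.

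Of 18 monocyte and macrophage genes, 14 fell and none rose, with a median of -3.58. Lyz2, the myeloid lysozyme, stood at 1673, 724 and 1076 CPM pre-tx and 14.8, 25.3 and 11.8 CPM post-tx. Csf1r, the receptor of macrophage colony-stimulating factor, went from 354, 90.1 and 176 CPM to 3.24, 17.1 and 10.9 CPM. Cd68, a lysosomal protein of macrophages, did not pass the test and stood at 116, 52.6 and 51.6 CPM pre-tx and 41.2, 115 and 68.7 CPM post-tx. Among 9 neutrophil genes 4 fell, and S100a9, a calcium-binding protein of neutrophils, went from 195, 193 and 163 CPM to 24.5, 5.74 and 9.95 CPM. The count of neutrophil genes was 2 without pre-tx library 1 or post-tx library 3. Of 8 dendritic cell genes 3 fell and 2 rose. Siglech, of plasmacytoid dendritic cells, went from 57.1, 56.9 and 40.7 CPM to 0.259, 4.14 and 0.196 CPM, while Itgax, an integrin chain that activated CD8+ T cells also express, went from 21.7, 11 and 30.2 CPM to 37.9, 97.4 and 69.7 CPM with a log2 fold change of 1.70 under TMM and -1.07 under T cell scaling. The rise of Itgax missed the threshold without WT post-tx library 2 (adjusted p = 0.0582) and without WT post-tx library 3 (adjusted p = 0.0573), and the count of dendritic cell genes that rose was 0 without post-tx library 2 or post-tx library 3 and 1 without pre-tx library 1, pre-tx library 2 or pre-tx library 3 or with the GC and length trend removed.

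Hemoglobin and other erythroid genes fell for 9 of 11 members (5 without pre-tx library 1 or post-tx library 3). Hbb-bs, an adult beta-globin that shares reads with its near-identical copy, stood at 2498, 2707 and 854 CPM pre-tx and 125, 356 and 79.1 CPM post-tx. Pre-tx library 3 was lowest of its group, and post-tx library 2 highest of its group. Of 4 megakaryocyte genes 2 fell (1 without pre-tx library 2, pre-tx library 3 or post-tx library 2). Of 11 liver and pancreas genes, which lymphocytes are not known to express, 1 fell: Alb, serum albumin, at 216, 695 and 1.13 CPM pre-tx and 10.3, 33.3 and 9.36 CPM post-tx, with overlapping groups. The call was lost with the GC and length trend removed (adjusted p = 0.0781), without WT pre-tx library 2 (adjusted p = 0.157), without WT post-tx library 1 (adjusted p = 0.0765) and without WT post-tx library 3 (adjusted p = 0.0854), and the count of the list that fell was 0 without pre-tx library 2 or post-tx library 1 and 5 without pre-tx library 3. Without pre-tx library 2, 2 members of this list rose. Under T cell scaling, which lowers the median of all genes and so leaves falling lists falling, the medians of the B cell, MHC class II, monocyte and macrophage, neutrophil and erythroid lists were between -10.01 and -4.95.

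The T cell receptor and CD8 coreceptor lists moved the other way under TMM. Of 19 genes of the T cell receptor complex and proximal signaling 14 rose and none fell under TMM, with a median of 2.42. The count that fell was 1 without post-tx library 2. Under T cell scaling 2 rose and 8 fell, with a median of -0.32. That scaling sets the sum of these same 19 genes equal in all libraries, so it shows only how each changed relative to their sum. Lck, the kinase bound to the coreceptors, stood at 514, 573 and 463 CPM pre-tx and 1480.0, 6201 and 4266 CPM post-tx. Zap70, the kinase recruited to the phosphorylated receptor, went from 74.8, 64.6 and 82.9 CPM to 444, 2306 and 1233 CPM and rose under both scalings (log2 fold change 4.16, SE 0.50, adjusted p = 4.14e-05, and 1.39 with adjusted p = 0.0118). Cd28, the costimulatory receptor of naive T cells, stood at 75, 16.2 and 50.6 CPM pre-tx and 70.8, 21.2 and 54.3 CPM post-tx, a difference that did not pass the test under TMM. Cd8a stood at 133, 79 and 133 CPM pre-tx and 362, 687 and 537 CPM post-tx. Cd8b1, the other chain of the coreceptor, stood at 264, 237 and 219 CPM pre-tx and 1158, 1653 and 1370.2 CPM post-tx. Of the 3 genes of the CD8 list these 2 rose. For both chains all post-tx libraries were higher. Cd8a rose by 2.20 (SE 0.37, adjusted p = 0.000532) under TMM, against -0.56 (adjusted p = 0.136) under T cell scaling. In *Cat-Tg* CD8+ T cells Cd8a changed by -0.12 (adjusted p = 0.825) and the median of the T cell receptor list was 0.07. Their B cell sums were between 1109.8 and 2503 CPM pre-tx and between 732 and 769 CPM post-tx, and the part of B cell RNA in these T cell values was not tested. Cd4 fell by 4.80 (SE 0.82, adjusted p = 0.000663), and Cd40lg, the CD40 ligand of helper cells, went from 15.1, 10.7 and 9.78 CPM to 0.841, 0.178 and 2.78 CPM. The fall of Cd40lg missed the threshold without WT pre-tx library 1 (adjusted p = 0.063) and without WT post-tx library 1 (adjusted p = 0.053). Of the 5 tested genes of the CD4 and regulatory list these 2 fell and 1 rose under TMM: Tnfrsf4, the costimulatory receptor OX40 of activated T cells, at 25.1, 14.1 and 22.5 CPM pre-tx and 41.9, 288 and 128 CPM post-tx (log2 fold change 2.89 under TMM and 0.11 under T cell scaling, the latter with adjusted p = 0.87). The summed level of this list was between 149 and 172 CPM pre-tx and between 54.6 and 372 CPM post-tx, with overlapping groups. Foxp3, the factor of regulatory T cells, stood at 22.7, 34.5 and 20.8 CPM pre-tx and 1.23, 43.3 and 9.48 CPM post-tx, with the highest level in post-tx library 2, and did not pass the test.

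**Figure D2:**
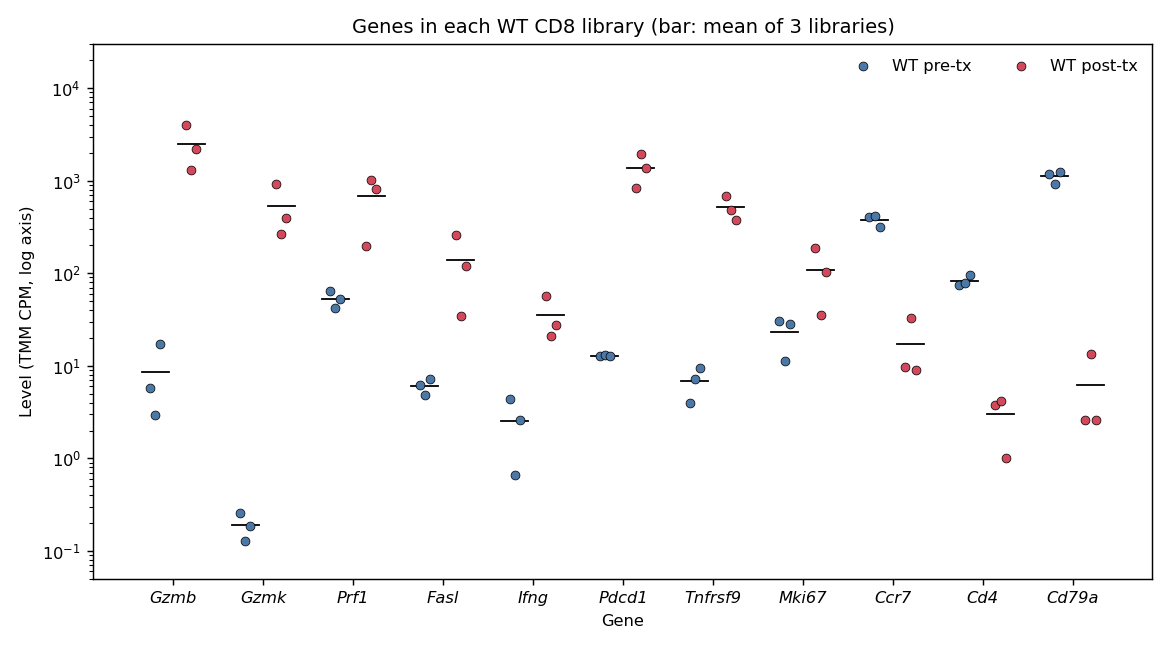
TMM CPM (log axis) of 11 genes in the 3 WT pre-tx and 3 WT post-tx libraries. Each point is 1 library and each horizontal bar the group mean. Gzmb, Gzmk, Pdcd1 and Tnfrsf9 show post-tx libraries far above all pre-tx libraries, and Ccr7 shows them below.

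Genes of the cytotoxic effector list, the tools of target cell killing, had the highest median change of the 25 lists. Of 17 tested members of 19, 13 rose and none fell under TMM, with a median of 4.50, and 10 rose and 2 fell under T cell scaling, with a median of 1.75. The count of risers was 13 in the fit with the GC and length trend removed as well. The summed level of the list went from between 572 and 897 CPM to between 16187 and 17643 CPM. Gzmb, the granzyme that cleaves caspases in the target cell, stood at 5.75, 2.92 and 17.3 CPM pre-tx and 3989.5, 1307 and 2215 CPM post-tx. It rose by 8.17 on the log2 scale (SE 0.75, adjusted p = 6.22e-06), and by 5.39 under T cell scaling. By TPM, Gzmb ranked 7106 among protein-coding genes pre-tx and 127 post-tx.

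Gzmk, a granzyme of trypsin-like specificity, stood at 0.256, 0.127 and 0.185 CPM pre-tx and reached 929.9, 269 and 400.1 CPM post-tx (log2 fold change 11.42, SE 0.68, adjusted p = 2.09e-07). Gzma, the tryptase of cytotoxic granules, was already present pre-tx, at 113, 32.3 and 146 CPM, and stood at 6477, 471 and 2147 CPM post-tx. Gzma and Gzmk lie beside each other on chromosome 13 of GRCm38 (113093825-113100981 and 113171608-113225908). Gzmb and Gzmc lie in another cluster on chromosome 14 (56258838-56262260 and 56231441-56234656), whose members share sequence, so that their reads may be split uncertainly. Gzmc stood at 0.0569, 0 and 0 CPM pre-tx, at most 2 counts in a library, and 19, 27.9 and 20.1 CPM post-tx. Gzmm, another member of the family, went from 5.67, 4.96 and 2.96 CPM to 50, 136 and 83.4 CPM. In post-tx library 2 Gzma, Gzmb and Gzmk were lowest of the 3, while Gzmm and Gzmc were highest.

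Prf1, the pore-forming perforin, stood at 64.1, 42.4 and 52.7 CPM pre-tx and 197, 1021 and 820.0 CPM post-tx, and rose by 3.68 (SE 0.51, adjusted p = 0.000128) under TMM. Under T cell scaling its change was 0.92 (adjusted p = 0.085). Nkg7, a granule membrane protein, went from 303, 217 and 296 CPM to 2768, 11635 and 7893 CPM. Fasl, the Fas ligand, went from 6.23, 4.83 and 7.26 CPM to 260.4, 34.3 and 119 CPM. Serpinb9, which inhibits granzyme B in the killer cell itself, went from 7.06, 7.03 and 16.2 CPM to 854, 136 and 373 CPM, with the post-tx libraries in the same order as for Gzmb. All post-tx libraries exceeded all pre-tx libraries for these genes.

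The list of NK receptors, which effector CD8+ T cells acquire, was split. Of 12 tested members 5 rose and 2 fell under TMM, against 3 that rose and 5 that fell under T cell scaling. Klrg1, a marker of short-lived effectors, stood at 5.67, 3.02 and 5.43 CPM pre-tx and 437, 63.5 and 149 CPM post-tx. Klrc1, which encodes NKG2A, went from 10.4, 1.81 and 16.6 CPM to 981, 71.5 and 389.6 CPM. Klrd1, which encodes its partner CD94, went from 31.9, 4.26 and 19 CPM to 666, 126 and 358 CPM. These 3 genes rose under both scalings, with post-tx library 1 highest and library 2 lowest each time. Cd160, a receptor of the immunoglobulin family, stood at 23, 21.8 and 24.9 CPM pre-tx and 334, 120.1 and 216 CPM post-tx, and changed by 0.52 (adjusted p = 0.276) under T cell scaling. Tyrobp, an adaptor of NK and myeloid cells, went the other way, from 280.1, 288 and 201 CPM to 18.7, 10.5 and 10.7 CPM, and Ncr1, the NKp46 receptor of NK cells, from 25.3, 7.95 and 38.5 CPM to 4.6, 2.31 and 1.61 CPM. The fall of Ncr1 missed the threshold without WT pre-tx library 1 (adjusted p = 0.0825), without WT pre-tx library 3 (adjusted p = 0.126), without WT post-tx library 2 (adjusted p = 0.0733) and without WT post-tx library 3 (adjusted p = 0.11), which left Tyrobp as the 1 member that fell.

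Of 14 tested cytokine and chemokine genes 7 rose and 2 fell, with a median of 2.08 under TMM and -0.66 under T cell scaling, where 1 rose and 6 fell. The 1 member that rose under T cell scaling was Ccl4, a chemokine released by activated T cells, at 1.79, 2.13 and 21.8 CPM pre-tx and 203, 450.2 and 339 CPM post-tx. Ifng, interferon gamma, stood at 4.33, 0.668 and 2.59 CPM pre-tx and 57, 21.1 and 27.9 CPM post-tx (log2 fold change 3.80, SE 0.82, adjusted p = 0.00354). Under T cell scaling its change was 1.05 (adjusted p = 0.248). Ccl5, the chemokine RANTES, stood at 203, 167 and 204 CPM pre-tx and 693, 2416 and 1528 CPM post-tx. Xcl1, which attracts cross-presenting dendritic cells, went from 7.06, 2.1 and 3.72 CPM to 50.4, 20.4 and 34.9 CPM. For all 4 genes the groups did not overlap. Under T cell scaling Ccl5 and Xcl1 changed by 0.25 and 0.30, neither past the test. The count of members that fell under TMM was 1 without pre-tx library 1, pre-tx library 2 or pre-tx library 3. Tnf, at 13.6, 5.82 and 2.84 CPM pre-tx and 2.01, 0.651 and 4.98 CPM post-tx, did not pass the test, and Il2, Il4, Il17a and Il21 were too low to be tested.

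Activation genes did not move as a block. Of 25 members 7 rose and 3 fell under TMM, with a median of 0.39, and 2 rose and 16 fell under T cell scaling. The TMM count that rose was 4 without post-tx library 3, and the count that fell was 1 without pre-tx library 1 or post-tx library 3 and 5 without post-tx library 2 or with the GC and length trend removed. Tnfrsf9, the costimulatory receptor 4-1BB, went from 3.96, 7.22 and 9.5 CPM to 678, 485 and 379 CPM and rose by 6.22 (SE 0.52, adjusted p = 4.45e-06). Batf, a transcription factor induced through the T cell receptor, went from 32, 40.9 and 29 CPM to 694, 611 and 416 CPM. Both rose under T cell scaling too, by 3.45 and 1.32. Il2rb, the shared beta chain of the IL-2 and IL-15 receptors, stood at 162, 152 and 146 CPM pre-tx and 414, 3124 and 1823 CPM post-tx, a rise of 3.54 under TMM and a change of 0.78 (adjusted p = 0.16) under T cell scaling. Nr4a1, Egr1, Cd69 and Myc did not pass the test under TMM. Nr4a1, an orphan nuclear receptor, stood at 131, 70.3 and 31.1 CPM pre-tx and 12, 38.6 and 28.3 CPM post-tx. Egr1, a zinc finger factor, stood at 38.3, 38.7 and 17.9 CPM pre-tx and 0.906, 21.3 and 6.31 CPM post-tx. Cd69, an early surface marker, stood at 54.9, 25 and 37.4 CPM pre-tx and 51.7, 2.31 and 21.8 CPM post-tx, with overlapping groups as for the other two. Myc, a factor of growth, stood at 111, 79.2 and 82.3 CPM pre-tx and 12.1, 62.5 and 32.8 CPM post-tx, where the groups did not overlap. All 4 fell under T cell scaling, with log2 fold changes of -4.30, -4.52, -3.36 and -4.11. Under that scaling 73.6% of all tested genes fell, and the median of all tested genes was -2.97.

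Inhibitory receptors gained 5 of 9 members under TMM, where 1 fell, and 3 under T cell scaling, where 4 fell. The count that fell under TMM was 0 without pre-tx library 1, pre-tx library 3, post-tx library 2 or post-tx library 3. With the GC and length trend removed, 6 rose. Pdcd1, which encodes PD-1, went from 12.6, 13.2 and 12.8 CPM to 827, 1933 and 1382 CPM, and rose by 6.75 (SE 0.45, adjusted p = 3.85e-07) under TMM and 3.98 under T cell scaling. Lag3, which binds MHC class II, went from 7.91, 3.97 and 5.25 CPM to 65.6, 499 and 232 CPM. Tigit, which binds the poliovirus receptor family, went from 4.84, 5.82 and 4.53 CPM to 51.3, 223 and 125 CPM. Pdcd1, Lag3 and Tigit were the 3 that rose under both scalings, with post-tx library 2 highest for each. Havcr2, which encodes TIM-3, stood at 7.89, 5.34 and 18.1 CPM pre-tx and 109.8, 25.7 and 72.3 CPM post-tx, a rise under TMM and a change of -0.03 (adjusted p = 0.97) under T cell scaling. Tox, a factor of exhausted T cells, stood at 15.9, 17.9 and 9.2 CPM pre-tx and 39.3, 19.7 and 43.5 CPM post-tx. Its groups did not overlap, but it missed the threshold (adjusted p = 0.0606).

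Genes of naive and quiescent T cells fell almost throughout the list: 19 of 21 members fell under TMM and 21 under T cell scaling, with medians of -2.33 and -5.07. B cells and CD4+ T cells also express several members, such as Ccr7 and Klf2. Ccr7, the chemokine receptor that guides naive cells into lymph nodes, went from 405, 417 and 319 CPM to 9.64, 32.9 and 9.05 CPM (log2 fold change -4.47, SE 0.56, adjusted p = 5.34e-05). Each post-tx library was below each pre-tx library. Tcf7, a partner of beta-catenin in Wnt signaling, went from 146, 68.9 and 101 CPM to 8.09, 20.1 and 21.9 CPM. Lef1, the related factor, went from 159, 134 and 124 CPM to 28.4, 53 and 36.6 CPM. Dapl1 went from 25.6, 36 and 18.4 CPM to 9.51, 1.78 and 4.62 CPM. The 2 members that did not pass under TMM had overlapping groups. Il7r, the IL-7 receptor chain, stood at 85.2, 37 and 61.1 CPM pre-tx and 60.5, 19.7 and 40.8 CPM post-tx. Klf2, a factor of quiescence, stood at 31.7, 30.3 and 37.7 CPM pre-tx and 26.1, 76.7 and 52.7 CPM post-tx. In the *Cat-Tg* libraries, whose pre-tx B cell sums were between 1109.8 and 2503 CPM, 12 members fell and the median was -2.40.

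Of 12 effector transcription factors 3 rose and 1 fell under TMM. Under T cell scaling none rose and 6 fell, where 73.6% of all tested genes fell. With the GC and length trend removed, 7 rose. Tbx21, which encodes T-bet, stood at 63.8, 37.6 and 79.7 CPM pre-tx and 159.9, 839.9 and 406 CPM post-tx, a rise of 2.96 (SE 0.52, adjusted p = 0.000804) under TMM and a change of 0.17 (adjusted p = 0.756) under T cell scaling. Id2, an inhibitor of E proteins, went from 82.6, 63.3 and 85.7 CPM to 516, 201 and 459 CPM. Bhlhe40 went from 27.6, 26.6 and 41 CPM to 77.5, 205 and 144 CPM. These 3 rose under TMM, and neither Id2 nor Bhlhe40 passed under T cell scaling (changes of -0.39 and -0.61). Eomes, the related T-box factor, stood at 23.7, 8.87 and 19 CPM pre-tx and 36.9, 21.2 and 26.7 CPM post-tx. Prdm1, which encodes Blimp-1, stood at 3.84, 2.38 and 9.99 CPM pre-tx and 22.5, 5.27 and 18.5 CPM post-tx, and neither passed the test. The member that fell was Zeb2, at 49.6, 21.3 and 78 CPM pre-tx and 5.24, 4.68 and 3.37 CPM post-tx, a gene that myeloid cells express as well.

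Trafficking receptors rose for 8 and fell for 5 of 21 members under TMM. Under T cell scaling they rose for none and fell for 13, where 73.6% of all tested genes fell. The count that fell under TMM was 3 without post-tx library 3. With the GC and length trend removed, 12 rose and 4 fell. Cxcr3, the receptor of interferon-induced chemokines, stood at 58.5, 68 and 51 CPM pre-tx and 127, 902 and 401 CPM post-tx. Cxcr6, a receptor of tissue-homing T cells, went from 61.9, 45.2 and 69.2 CPM to 382, 96.9 and 324 CPM. Both rose under TMM and changed by 0.23 and -0.54 under T cell scaling. Cxcr5, which guides B cells and follicular helper cells into follicles, fell from 196, 129.6 and 191 CPM to 3.5, 1.24 and 3.41 CPM (log2 fold change -5.98). Cx3cr1 did not pass the test, at 24.7, 12.8 and 9.64 CPM pre-tx and 17.3, 30 and 56.9 CPM post-tx.

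**Figure D3:**
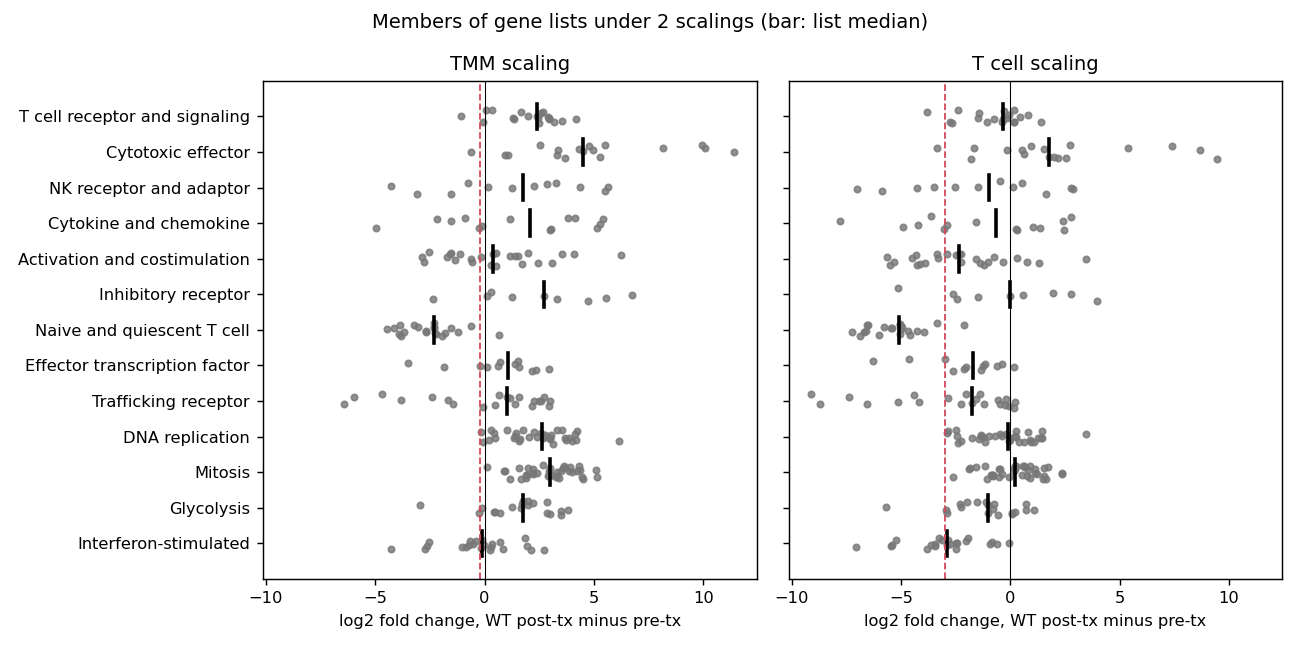
Log2 fold changes (post-tx minus pre-tx) of the tested members of 13 gene lists, under TMM and under T cell scaling. Each point is 1 gene, each black bar the list's median, and the dashed lines mark the medians over all tested genes (-0.23 and -2.97). The median of the cytotoxic list lies above 0 under both scalings, while those of the DNA replication and mitosis lists lie above 0 under TMM and close to 0 under T cell scaling.

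Cell cycle genes rose together under TMM, whereas under T cell scaling their medians were close to that of the T cell receptor list (-0.32). Of 34 DNA replication genes 25 rose and none fell under TMM, with a median of 2.63, against 4 that rose and 10 that fell under T cell scaling, with a median of -0.12. Of 39 mitosis genes 31 rose and none fell under TMM, with a median of 2.99, against 6 that rose and 3 that fell under T cell scaling, with a median of 0.23. With the GC and length trend removed, 27 replication and 36 mitosis genes rose. Fits that left out 1 WT library gave between 20 and 25 replication and between 21 and 31 mitosis genes that rose. The 6 WT libraries alone gave 19 and 24. In the *Cat-Tg* libraries, where the summed T cell receptor list stood at between 11633 and 15889.8 CPM pre-tx and between 14646 and 15313 CPM post-tx, 28 replication and 28 mitosis genes rose, with medians of 2.72 and 3.40.

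Mki67, which encodes the proliferation marker Ki-67, stood at 30.8, 11.4 and 28.1 CPM pre-tx and 188, 35.7 and 104 CPM post-tx, without overlap, and rose by 2.22 (SE 0.69, adjusted p = 0.028) under TMM. It missed the threshold in 5 of 6 fits that left out a library: without WT pre-tx library 1 (adjusted p = 0.054), without WT pre-tx library 2 (adjusted p = 0.102), without WT pre-tx library 3 (adjusted p = 0.0591), without WT post-tx library 1 (adjusted p = 0.147) and without WT post-tx library 3 (adjusted p = 0.0761). Its change under T cell scaling was -0.52 (adjusted p = 0.491). Birc5, Cdk1, Cdc20, Mcm5, Pcna and Rrm2 kept their calls in all 6 of these fits. Birc5, which encodes survivin of the chromosomal passenger complex, stood at 19.4, 26.5 and 15 CPM pre-tx and 411, 363 and 383 CPM post-tx and rose by 4.25 (SE 0.38, adjusted p = 5.32e-06), and by 1.51 under T cell scaling. Cdk1, the mitotic kinase, went from 11.7, 6.26 and 7.79 CPM to 529, 135 and 234 CPM. Cdc20, the activator of the anaphase-promoting complex, went from 30, 25.9 and 40.8 CPM to 332, 901 and 672 CPM. Cdk1 and Cdc20 also rose under T cell scaling, by 2.38 and 1.53.

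Mcm5, a subunit of the replicative helicase, stood at 72.1, 59.5 and 60.7 CPM pre-tx and 339.6, 1991 and 1258 CPM post-tx. Pcna, the sliding clamp, stood at 55.3, 33.2 and 43.1 CPM pre-tx and 1338, 173 and 601 CPM post-tx, in the reverse order of the post-tx libraries. Both rose under both scalings, Mcm5 by 4.22 and 1.46 and Pcna by 4.0 and 1.27. Rrm2, a subunit of ribonucleotide reductase, went from 33.9, 22.2 and 37.9 CPM to 224, 178 and 206 CPM under TMM and changed by -0.06 (adjusted p = 0.896) under T cell scaling. Of 15 G1 regulators and CDK inhibitors 5 rose (3 without post-tx library 2) and 2 fell under TMM. The count that fell was 0 without pre-tx library 1 or pre-tx library 2. It was 1 without pre-tx library 3, post-tx library 1 or post-tx library 3. Under T cell scaling 1 rose and 11 fell, where 73.6% of all tested genes fell. Cdk4, the kinase of D-type cyclins, went from 164, 145 and 174 CPM to 515, 779.6 and 611 CPM, a rise under TMM, and fell under T cell scaling (log2 fold change -0.78). Cdkn1b, the inhibitor p27, stood at 4.5, 11.7 and 10.3 CPM pre-tx and 7.38, 4.8 and 7.05 CPM post-tx and did not pass the test.

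Genes that act in mitosis are known to share promoter elements: a CCAAT box and a cell cycle homology region (CHR, here the letters TTTGAA), while many replication genes carry E2F letters (here TTGGCGC or TTCCCGC). These letters were searched on both strands in the 250 bases before each RefSeq gene start (GRCm38.p6). Among 32851 promoters, 16% held the CHR letters, 33.8% held CCAAT and 5.62% held E2F letters. Promoters were found for 32 of the 39 mitosis genes. Of their 34 promoters, 11 (32.4%) held CHR letters, 25 (73.5%) CCAAT and 4 (11.8%) E2F letters. Of the 33 promoters of 27 replication genes, 13 (39.4%) held E2F letters, 21 (63.6%) CCAAT and 5 (15.2%) CHR letters. A match is a description of the letters and not a bound site. The sequences before Cdc20 (chr4:118437344-118437593, minus strand), Cdk1 (chr10:69352913-69353162, minus strand) and Mcm5 (chr8:75109259-75109508, plus strand) are given 5′ to 3′, since these genes rose under both scalings, with only the CCAAT and CHR letters in capitals for Cdc20 and Cdk1 and only the E2F letters in capitals for Mcm5, on whichever strand they were found.
Cdc20: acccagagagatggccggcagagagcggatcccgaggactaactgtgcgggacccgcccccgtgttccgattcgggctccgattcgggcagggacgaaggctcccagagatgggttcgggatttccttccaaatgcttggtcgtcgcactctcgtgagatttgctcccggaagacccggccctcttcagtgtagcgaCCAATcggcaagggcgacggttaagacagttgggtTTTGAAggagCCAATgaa
Cdk1: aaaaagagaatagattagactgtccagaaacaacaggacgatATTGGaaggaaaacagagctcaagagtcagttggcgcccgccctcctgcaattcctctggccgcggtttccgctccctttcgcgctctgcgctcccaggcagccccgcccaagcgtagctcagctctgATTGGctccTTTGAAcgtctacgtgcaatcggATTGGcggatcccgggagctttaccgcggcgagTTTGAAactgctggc
Mcm5: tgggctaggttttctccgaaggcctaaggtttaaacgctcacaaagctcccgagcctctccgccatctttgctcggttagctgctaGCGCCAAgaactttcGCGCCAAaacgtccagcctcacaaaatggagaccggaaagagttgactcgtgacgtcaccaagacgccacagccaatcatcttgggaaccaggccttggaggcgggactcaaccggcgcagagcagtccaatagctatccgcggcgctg

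Glycolytic genes rose for 12 and fell for 1 of 19 members under TMM, with a median of 1.78, and rose for 1 and fell for 8 under T cell scaling. The 1 member that rose under both was Ldha, lactate dehydrogenase A, at 507, 541 and 483 CPM pre-tx and 9096, 7154 and 5514 CPM post-tx (log2 fold changes 3.83 and 1.07). Gapdh stood at 568, 491 and 434 CPM pre-tx and 1432, 9988 and 5272 CPM post-tx, with post-tx library 2 highest and library 1 lowest, and changed by 0.71 (adjusted p = 0.172) under T cell scaling. Slc2a1, the glucose transporter GLUT1, stood at 63.9, 50.2 and 43.8 CPM pre-tx and 21.4, 114 and 86.1 CPM post-tx. Hk2, hexokinase 2, stood at 10, 3.85 and 10.4 CPM pre-tx and 2.01, 4.68 and 13.8 CPM post-tx, and neither passed the test under TMM. Of 22 interferon-stimulated genes 4 rose and 4 fell under TMM, with a median of -0.13, where 13.2% of all tested genes rose and 10.4% fell. Under T cell scaling none rose and 19 fell, where 73.6% of all tested genes fell. Isg15, a ubiquitin-like protein, stood at 16.5, 23 and 9.66 CPM pre-tx and 46.7, 18.7 and 14.3 CPM post-tx, with overlapping groups, and did not pass the test under TMM.

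Ranked by log2 fold change, the 8 highest protein-coding DEGs with at least 10 CPM and no overlap held granzymes, histones and less known genes. Gzmk and Gzmc were 2 of them. Hist1h1b, a linker histone of S phase, stood at 0.0854, 0.954 and 0 CPM pre-tx and 96.8, 128 and 95.8 CPM post-tx. Hist1h3b and Hist1h3g, 2 of the near-identical copies of histone H3 whose reads can be split uncertainly, were at 0 in every pre-tx library. Hist1h3b stood at 12.2, 13.9 and 4.43 CPM post-tx, at least 107-fold higher when 3 counts per library are set as the pre-tx level. Hist1h3g stood at 9.71, 23.4 and 8.38 CPM post-tx, at least 145-fold higher by the same floor. 2210011C24Rik, a gene of unknown function, was also at 0 pre-tx and stood at 6.47, 18.7 and 18.3 CPM post-tx, at least 152-fold higher. Chit1, a chitinase, stood at 0, 0.0636 and 0 CPM pre-tx and 3.43, 26.7 and 14.3 CPM post-tx. The last was the less abundant of 2 gene identifiers with the symbol Chtf8, at 0.0569, 0.0318 and 0 CPM pre-tx and 2.72, 27.1 and 6.9 CPM post-tx.

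The 8 lowest included Cr2, Cd300e, Fpr1, S1pr3, Atp1b1, Fcrla and Pakap. Fcrla, an Fc receptor-like protein of B cells, went from 103, 99.5 and 114 CPM to 0.259, 0.71 and 0.118 CPM. Cd300e, a receptor of monocytes, went from 32.8, 4.45 and 19.1 CPM to 0.129, 0 and 0 CPM. Fpr1, the formyl peptide receptor of neutrophils and monocytes, went from 24.3, 5.47 and 28.6 CPM to 0.129, 0 and 0 CPM. S1pr3, a sphingosine 1-phosphate receptor, went from 50.8, 54.5 and 97.2 CPM to 0.259, 0.296 and 0.157 CPM. Atp1b1, a subunit of the sodium pump, went from 35.2, 18.7 and 15.1 CPM to 0, 0.118 and 0 CPM. Pakap stood at 22.8, 21.7 and 27 CPM pre-tx and at 0 in every post-tx library, at least 123-fold lower. Cr2 and Fcrla are members of the B cell list, and Cd300e, Fpr1, Atp1b1 and Pakap reached at most 2 counts in any post-tx library.

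**Figure D4:**
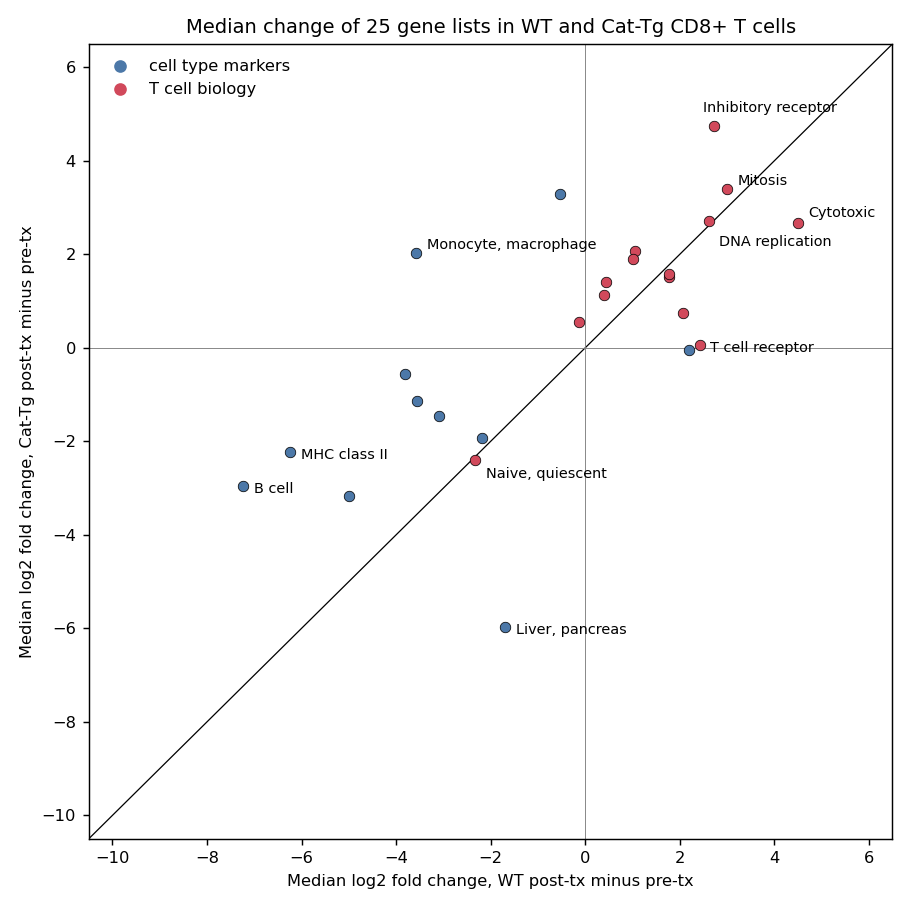
Median log2 fold change (post-tx minus pre-tx) of 25 gene lists in WT (x axis) and in *Cat-Tg* CD8+ T cells (y axis), under TMM. Each point is 1 list and the diagonal marks equal medians. The B cell, MHC class II and monocyte lists lie above the diagonal, the T cell receptor list lies below it, and the DNA replication and mitosis lists lie near the diagonal.

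The WT change was compared with that of *Cat-Tg* CD8+ T cells by an interaction in the same fit, in which the 2 changes share no library. All WT samples carry one label prefix and all *Cat-Tg* samples another, so that genotype and whatever this prefix marks cannot be told apart. By the Y-linked gene Ddx3y, given below, sex and transplant cannot be told apart in the *Cat-Tg* change either. Of the tested genes, 763 (4.78%) had a higher and 946 (5.92%) a lower change in WT than in *Cat-Tg* cells under TMM, against 64 and 7622 under T cell scaling. The TMM counts depended on single libraries: they were 459 and 905 without *Cat-Tg* pre-tx library 1, 399 and 816 without *Cat-Tg* pre-tx library 3, 431 and 559 without *Cat-Tg* post-tx library 1, 435 and 572 without *Cat-Tg* post-tx library 2, 559 and 623 without WT pre-tx library 1 and 974 and 1538 without WT post-tx library 2. In the *Cat-Tg* libraries themselves 8.71% of genes rose and 5.22% fell. Marker lists of other cell types differed as well: 16 of 18 monocyte and macrophage genes, 15 of 22 B cell genes and 7 of 11 class II genes had a WT change below that of *Cat-Tg* cells, and 9 of 19 T cell receptor genes a WT change above it. In *Cat-Tg* cells 7 of the monocyte and macrophage genes rose and 2 fell (median 2.04), and 17 of the B cell genes fell (median -2.96). Of the replication, mitosis and glycolysis lists, 1, 0 and 1 members had a WT change above that of *Cat-Tg* cells and 2, 2 and 1 a WT change below it.

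Among the cytotoxic genes the WT change lay above that of *Cat-Tg* cells for 6 and below it for none under TMM. Of these, Gzmc and Gzmm missed the threshold in 9 and 6 of the 12 fits that left out a CD8 library, and Gzmc also with the GC and length trend removed (adjusted p = 0.0912). The difference of Gzmm was -0.37 under T cell scaling. Gzmk rose by 11.42 in WT and by 3.41 in *Cat-Tg* cells, a difference of 8.01 (SE 0.72, adjusted p = 6.51e-05) under TMM and 5.35 under T cell scaling. The WT change of Tnfrsf9 lay above that of *Cat-Tg* cells by 2.75, that of Nkg7 by 2.48 and that of Batf by 2.45 under TMM, against 0.00, -0.22 and -0.22 under T cell scaling. The differences of Nkg7 and Batf missed the threshold with the GC and length trend removed (adjusted p = 0.0713 and 0.0511). Xcl1 rose in WT and fell in *Cat-Tg* cells under TMM (log2 fold changes 3.03 and -1.98), with a difference of 2.36 under T cell scaling, and Klrd1 rose in WT against -1.12 (adjusted p = 0.226) in *Cat-Tg* cells, a difference that missed the threshold with the GC and length trend removed (adjusted p = 0.211). Gzmb, Prf1, Pdcd1, Lag3 and Tigit did not pass the test of the difference, with differences of 0.89, 0.81, -0.22, 0.16 and -0.02. Their standard errors were 0.78, 0.65, 0.50, 0.81 and 0.66, so that equal change is not shown. In the other direction, Bhlhe40 rose by 2.16 in WT and 7.74 in *Cat-Tg* cells. Irf4 stood at 52.3, 39.3 and 59.4 CPM pre-tx and 18.8, 0.947 and 2.63 CPM post-tx in WT and rose in *Cat-Tg* cells, a difference of -5.98 (adjusted p = 0.0132). Cx3cr1 differed by -6.52 and Itgax by -6.12, with changes of 7.67 and 7.82 in *Cat-Tg* cells. Ccr7 and Dapl1 fell less far in WT than in *Cat-Tg* cells under TMM, by differences of 2.93 and 3.75, against 0.20 and 1.09 under T cell scaling.

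Of genes with at least 10 CPM in 1 of the 4 groups, the 5 highest differences were those of Chit1 (10.30), Ddx3y (9.34), Serpina1c (9.17), Amy2a1 (9.11) and Lad1 (8.85). For Ddx3y, on the Y chromosome, Serpina1c, a liver antiprotease, and Amy2a1, a pancreatic amylase with near-identical copies, no change was called in WT, and the fitted changes in the *Cat-Tg* samples were -10.27, -10.61 and -12.86. Ddx3y was at most 0.414 CPM in the 6 WT libraries. In the *Cat-Tg* libraries it averaged 43.1 CPM pre-tx and 0.03 CPM post-tx. By this Y-linked gene, donor sex differed between the *Cat-Tg* pre-tx and post-tx cells, so sex and transplant cannot be told apart in their change. The part of sex in the difference from the WT change was not tested. The difference of Amy2a1 missed the threshold with the GC and length trend removed (adjusted p = 0.134). The differences of Chit1 and Ddx3y missed the threshold in 1 and 1 of the 12 fits that left out 1 of the 12 CD8 libraries (without Cat-Tg pre-tx library 1, adjusted p = 0.111, and without WT post-tx library 2, adjusted p = 0.0633), and those of Serpina1c and Amy2a1 in 7 and 8 of them, with adjusted p up to 0.0765 and 1. Lad1 stood at 0.37, 0.0636 and 0 CPM pre-tx and 8.54, 41.7 and 11.3 CPM post-tx in WT. Values for genes with at most 3 counts in every library of a group, such as Chit1, depend on the prior count of the fit. The 5 lowest were Alox15 (-11.88), Ifi207 (-10.03), Fpr1 (-9.73), Hspa1b (-9.68) and Ctse (-9.45). Ctse, the protease cathepsin E, stood at 381, 222 and 286 CPM pre-tx and 2.46, 6.28 and 5.45 CPM post-tx in WT, against a change of 3.49 in *Cat-Tg* cells. Alox15, a lipoxygenase of resident macrophages, went from 13.3, 0.54 and 18.6 CPM to 0.0647, 0.118 and 0 CPM. Ifi207, of the interferon-inducible p200 family, went from 17.9, 1.3 and 11.2 CPM to 0.453, 0.178 and 0.0784 CPM. Hspa1b, a heat shock protein with a near-identical neighbour that takes part of its reads, stood at 17.6, 42.6 and 14.8 CPM pre-tx and 0, 0.0592 and 2.04 CPM post-tx. The fall of Hspa1b missed the threshold without WT pre-tx library 2 (adjusted p = 0.0539), and that of Ifi207 with the GC and length trend removed (adjusted p = 0.0525), without WT pre-tx library 1 (adjusted p = 0.0806), without WT post-tx library 2 (adjusted p = 0.0628) and without WT post-tx library 3 (adjusted p = 0.0878).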

How the data were processed

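Total RNA of FACS-sorted cells was extracted, converted to cDNA from 1 ng with the SMARTseq HT kit and made into Nextera XT libraries, per the labels. The authors quantified transcripts with kallisto 0.46.2 and deposited, for each sample, estimated counts and TPM per transcript, where TPM is scaled to each library's total and to transcript length. The submitters' notes name the mouse build mm9 and limma. The release of the transcript index is not given in the sources used here. Of 117497 transcripts, 116374 matched GENCODE M21 (GRCm38), whose coordinates are used. The estimated counts were summed over 35855 genes and rounded. Genes above 1 CPM in 3 or more of the 12 CD8 libraries entered edgeR's quasi-likelihood test (robust, TMM, edgeR 4.0.16, R 4.3.3), with 1 coefficient per group and Benjamini-Hochberg adjustment over all genes tested. All p-values in the text are adjusted in this way. The change in *Cat-Tg* cells and its difference from the WT change came from the same fit. TPM gave ranks and ratios between genes only.

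WT libraries held 18184813 to 32657005 estimated counts, and floors cover counting error only. The replicates are mice, 3 per group. Pre-tx mice and post-tx recipients were different animals, so replicate numbers were not used as a block in the reported fit. The members, gene lists, tests and alternatives were chosen with earlier results of these data known. The same counts were also fitted by DESeq2 1.42.0 and by limma-voom 3.58.1, with the size factors of DESeq2, with T cell scaling, with other filters, length-scaled TPM, protein-coding genes only, a replicate block, the 6 WT libraries alone, other thresholds and leaving out each library. A fit with smooth trends of GC content and gene length (mgcv 1.9.3) removed from each library was chosen after seeing the data. Genes were named by rule: the marker genes given, the 8 highest and 8 lowest changes and the 5 highest and 5 lowest differences from *Cat-Tg* cells among protein-coding genes with at least 10 CPM, and fixed members of each list. Some of these genes are not reported here. The CD4 libraries were not used here.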

Additional observations from a re-analysis of the deposited data

Results flagged for a closer look

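The WT change differed from the *Cat-Tg* change, by the interaction test, for 54 of the 109 genes named. Over all tested genes, 763 (4.78%) had a higher and 946 (5.92%) a lower change in WT. Some genes were named because their differences by this same test were the highest or lowest, so the 54 do not measure how common a difference is. Values are given as the WT minus *Cat-Tg* log2 difference under TMM. Among T cell lists the WT change lay above for Batf (2.45), Ccr7 (2.93), Cd3g (3.37), Dapl1 (3.75), Gzmc (5.81), Gzmk (8.01), Gzmm (2.32), Il7r (2.44), Klrd1 (5.50), Lck (2.45), Ldha (2.86), Nkg7 (2.48), Pcna (3.04), Tnfrsf9 (2.75), Xcl1 (5.02) and Zap70 (2.80). It lay below for Bhlhe40 (-5.57), Cx3cr1 (-6.52), Cxcr5 (-3.53), Havcr2 (-3.21), Irf4 (-5.98), Ncr1 (-5.20), Nr4a1 (-4.15), Prdm1 (-3.41) and Tyrobp (-4.06). Among marker lists it lay below for Cd4 (-5.60), Cd40lg (-4.67), Cd68 (-4.13), Cd74 (-5.54), Cd79a (-3.15), Cr2 (-4.01), Csf1r (-6.46), H2-Ab1 (-4.02), Ighm (-2.40), Itgax (-6.12), Jchain (-3.49) and Lyz2 (-3.96), and above for Cd8a (2.32) and Cd8b1 (2.59). Among the genes with the highest or lowest changes or differences it lay above for Amy2a1 (9.11), Chit1 (10.30), Chtf8 (7.63), Ddx3y (9.34), Hist1h3b (8.70), Hist1h3g (7.38), Lad1 (8.85) and Serpina1c (9.17), and below for Alox15 (-11.88), Ctse (-9.45), Fpr1 (-9.73), Hspa1b (-9.68), Ifi207 (-10.03), Pakap (-8.69) and S1pr3 (-6.59). Genotype and label prefix cannot be told apart here, nor can sex and transplant in the *Cat-Tg* change. Values of genes at or near 0 in a group depend on the prior count of the fit.

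The difference passed the test in every fit that left out 1 of the 12 CD8 libraries for 38 of these genes. It missed the threshold in some of these fits for 16 genes, with the number of fits and the highest adjusted p (edgeR) as follows: Amy2a1 in 8 (up to 1), Cd40lg in 5 (up to 0.0937), Chit1 in 1 (up to 0.111), Cr2 in 2 (up to 0.0943), Ddx3y in 1 (up to 0.0633), Gzmc in 9 (up to 0.394), Gzmm in 6 (up to 0.092), Havcr2 in 7 (up to 0.103), Hist1h3b in 5 (up to 0.192), Hist1h3g in 10 (up to 1), Il7r in 4 (up to 0.0593), Lck in 2 (up to 0.0545), Ncr1 in 5 (up to 0.0746), Pcna in 1 (up to 0.0517), Prdm1 in 8 (up to 0.116) and Serpina1c in 7 (up to 0.0765). With the GC and length trend removed it missed the threshold for Amy2a1 (adjusted p = 0.134), Batf (adjusted p = 0.0511), Gzmc (adjusted p = 0.0912), Hist1h3b (adjusted p = 0.0747), Hist1h3g (adjusted p = 0.134), Klrd1 (adjusted p = 0.211), Nkg7 (adjusted p = 0.0713) and Prdm1 (adjusted p = 0.139).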

How the results depend on the processing

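DEG counts (1302 higher, 1297 lower) depended mainly on the scaling: T cell scaling gave 107 higher and 10219 lower DEGs, and 7686 genes that differed between WT and *Cat-Tg* cells in place of 1709. Removing the GC and length trend, added after seeing the data, gave 627 higher DEGs and 1224 lower. Higher genes numbered 2097 with the fold threshold lowered to 1 (log2) and 2102 by the adjusted p alone. DESeq2 called 2870 genes different between WT and *Cat-Tg* cells. Leaving out 1 WT library gave between 919 and 1248 higher and between 992 and 1634 lower DEGs, and leaving out any of the 12 CD8 libraries gave between 990 and 2512 differing genes. The 6 WT libraries alone give no such difference. Counts under the remaining alternatives were within 1.5 times these.

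Under T cell scaling the log2 fold change reversed in sign for Bhlhe40 (-0.61), Cd28 (-2.69), Cd3e (-0.40), Cd3g (-0.14), Cd68 (-2.73), Cd8a (-0.56), Cd8b1 (-0.21), Cdk4 (-0.78), Cx3cr1 (-1.56), Cxcr6 (-0.54), Eomes (-2.03), Havcr2 (-0.03), Id2 (-0.39), Isg15 (-2.05), Itgax (-1.07), Klf2 (-2.13), Mki67 (-0.52), Rrm2 (-0.06), Slc2a1 (-2.26) and Tox (-1.46), and the difference between WT and *Cat-Tg* cells for Batf (-0.22), Cd8a (-0.39), Cd8b1 (-0.10), Gzmm (-0.37), Il7r (-0.18), Lck (-0.25) and Nkg7 (-0.22). Sign changes of the WT change were counted only for genes with a call in the reported fit or in the alternative. Counted in this way, no named gene changed sign under another alternative. The reversals follow from the construction of the scaling, which lowers the median of all genes by 2.75 (log2). Of 109 named genes, 104 kept their side of the threshold under DESeq2, 103 under limma-voom and 100 with the GC and length trend removed. In the last of these fits, 7 named genes gained a call and 2 lost it.

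With the replicate number as a block, 1213 DEGs were higher, 1270 lower and 1518 genes differed between WT and *Cat-Tg* cells. Deviations of same-numbered pre-tx and post-tx libraries correlated at -0.012, 0.176 and 0.0412, and not every post-tx library correlated best with its own number. With 3 libraries per group and no test, these values cannot show whether the numbers pair the samples. By the study's methods, pre-tx mice and post-tx recipients were different animals.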
